A study of Mus musculus with 10 samples.

Results

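Genes of fatty acid oxidation and of the response to the nuclear receptor PPAR alpha were followed in colon RNA of mice on a pro-inflammatory diet and of mice on a normal diet. The 33 genes were listed by name for their function, with no threshold on their values but with earlier results of these data known. All 33 were found among the 18398 genes of the deposited table. The study's title concerns such a diet in colitis, and the labels give no colitis treatment for either group. Both groups are wild-type colon tissue, with 5 libraries (PI-1 to PI-5) labelled as pro-inflammatory diet and 5 (CN-1 to CN-5) as normal diet. The diet's composition, its length, and the strain, sex and age of the mice are not given in the sources used here, nor is it said that the samples came from separate animals. The p-values can thus speak only for the scatter of these samples, part of which may be technical.

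Cells burn fatty acids by joining them to coenzyme A, carrying them into mitochondria on carnitine and cutting them down by repeated rounds of dehydrogenation, hydration, a second dehydrogenation and thiolysis. Peroxisomes run a similar spiral for very long chains, and CYP4A enzymes oxidise the far end of the chain in the endoplasmic reticulum. PPAR alpha, bound to a retinoid X receptor, switches on many of these genes when fatty acids are plentiful, and it is best known from liver and proximal gut. The colon epithelium relies on the same mitochondrial spiral to burn butyrate made by bacteria.

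PPAR and retinoid X receptor pairs bind a direct repeat of the letters AGGTCA, spaced by 1 base. To show what the promoters of the genes described below hold, the 250 bases before the annotated start were read from RefSeq (GRCm38.p6, the assembly of mm10), where 26 of the 33 genes had a window, 28 windows in all. The spaced repeat, searched on both strands as 2 copies of AGGNCA with any 1 base between them, was in 0 of these 28 windows and in 0.338% of all 32851. The single unit AGGTCA, which is also part of that repeat, was in 5 of the 28 windows (17.9%) and in 14.0% of all. Those 5 belong to Acadvl, Cpt1a, Acadm, Plin2 and Creb3l3. A match is a run of letters, not a measured binding site. The promoters of Acadvl, Cpt1a, Acadm and Plin2 are shown because they hold the unit while the level of Acadvl was higher on the pro-inflammatory diet in nearly every library and those of Acadm and Plin2 were lower on average. Those of the thiolase pair Acaa1a and Acaa1b are shown because the first was well expressed in every library and the second was nearly silent on the normal diet. All read 5′ to 3′ on the gene's own strand, and capitals mark AGGTCA or its complement TGACCT.
Acadvl (chr11:70015429-70015678, minus strand): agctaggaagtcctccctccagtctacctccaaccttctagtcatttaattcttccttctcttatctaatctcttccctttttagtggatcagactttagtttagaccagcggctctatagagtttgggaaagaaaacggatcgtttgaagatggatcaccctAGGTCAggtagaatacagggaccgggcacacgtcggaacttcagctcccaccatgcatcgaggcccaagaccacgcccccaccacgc
Cpt1a (chr19:3323051-3323300, plus strand): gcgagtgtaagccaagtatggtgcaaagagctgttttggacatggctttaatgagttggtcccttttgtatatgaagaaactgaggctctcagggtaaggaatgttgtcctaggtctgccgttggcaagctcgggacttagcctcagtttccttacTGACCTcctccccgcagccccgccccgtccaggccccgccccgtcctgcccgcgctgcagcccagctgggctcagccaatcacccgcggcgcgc
Acadm (chr3:153944644-153944893, minus strand): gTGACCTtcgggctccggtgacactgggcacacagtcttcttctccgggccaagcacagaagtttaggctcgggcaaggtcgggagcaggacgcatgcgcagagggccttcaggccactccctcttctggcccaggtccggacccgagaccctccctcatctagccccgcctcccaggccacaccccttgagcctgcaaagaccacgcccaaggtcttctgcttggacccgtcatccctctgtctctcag
Plin2 (chr4:86670060-86670309, minus strand): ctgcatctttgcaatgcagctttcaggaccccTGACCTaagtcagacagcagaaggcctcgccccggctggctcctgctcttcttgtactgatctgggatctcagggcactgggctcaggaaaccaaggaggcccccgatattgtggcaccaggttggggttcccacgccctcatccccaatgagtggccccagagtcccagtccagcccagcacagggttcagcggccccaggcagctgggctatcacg
Acaa1a (chr9:119341044-119341293, plus strand): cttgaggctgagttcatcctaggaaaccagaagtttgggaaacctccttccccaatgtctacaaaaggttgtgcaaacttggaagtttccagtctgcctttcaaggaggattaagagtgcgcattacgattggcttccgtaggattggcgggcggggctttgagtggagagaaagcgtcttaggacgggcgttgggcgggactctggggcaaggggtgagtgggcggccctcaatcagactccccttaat
Acaa1b (chr9:119157094-119157343, minus strand): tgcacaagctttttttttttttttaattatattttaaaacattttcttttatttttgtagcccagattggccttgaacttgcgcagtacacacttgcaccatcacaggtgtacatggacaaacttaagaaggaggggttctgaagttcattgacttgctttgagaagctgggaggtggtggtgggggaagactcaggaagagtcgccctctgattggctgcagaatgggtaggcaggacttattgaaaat
The unit begins 87 bases before the start in Acadvl, 94 in Cpt1a, 249 in Acadm and 218 in Plin2, and the windows of Acaa1a and Acaa1b hold none. Aligned end to end, the windows of Acaa1a and Acaa1b are 46.6% identical.

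Values are FPKM, the authors' fragment counts scaled to gene length and library depth, from libraries with 15652783 to 18341956 reads on genes. Some libraries stood apart in ways that touch these genes. PI-2 and PI-5 had the 2 lowest values of all 10 libraries for 5 of 5 markers of the distal colon, and the distal homeobox gene Hoxb13 was at 0.417 and 20.9 FPKM there, against 292.4 to 341.5 in PI-1, PI-3 and PI-4 and 210.7 to 332.8 in the normal diet libraries. The 5 distal markers summed to 5.86 FPKM in PI-2 and 32.3 in PI-5, against 260.7 to 402.8 on the normal diet. PI-1 and PI-3 had the 2 highest values for 9 of 9 hepatocyte plasma protein genes, against 2.8% of all genes tested. That list was chosen after the values were seen. On an earlier list of 6 hepatocyte markers it was 5, the exception being Cyp2e1, at 30.2 FPKM in PI-2 and 20.8 in PI-3. Ttr, also on the earlier list, was at 32.8 FPKM in PI-4 and 26.2 to 38.6 on the normal diet. Albumin (Alb) was at 97.3 and 100.4 FPKM in PI-1 and PI-3, against 0.166 to 0.703 in PI-2, PI-4 and PI-5 and 1.53 to 8.45 in the normal diet libraries. CN-1, CN-2 and CN-3 had low levels of the clock output gene Dbp, 1.79 to 6.69 FPKM. It was at 35.4 and 42.6 in CN-4 and CN-5 and at 12.4 to 54.3 on the pro-inflammatory diet. Of 9 clock output markers, 8 were higher on average on that diet. The clock genes Arntl, Npas2, Clock and Nfil3 were all lower, Npas2 at 2.46 to 4.71 FPKM against 6.54 to 13.1 on the normal diet. Clock markers thus differed between the diets as well as among the normal diet libraries. Smooth muscle markers summed to 2306.7 to 3183.6 FPKM on the pro-inflammatory and 2659.3 to 3949.2 on the normal diet. All 7 were lower on average on the pro-inflammatory diet, 5 of them at an unadjusted limma p under 0.05 (9.25% of all genes tested). Epithelial markers summed to 3945.0 to 5014.4 FPKM on the pro-inflammatory and 3442.2 to 4587.0 in the normal diet libraries, with 4 higher and 3 lower on average. Of the colonocyte markers, the carbonic anhydrase genes were abundant in every library, with Car1 at 394.7 to 3567.5 FPKM on the pro-inflammatory and 165.1 to 491.8 on the normal diet, and Car4 at 295.3 to 826.3 FPKM on the pro-inflammatory and 434.1 to 686.1 on the normal diet. The 7 small intestine markers summed to 262.1 FPKM in CN-4, against 7.47 to 12.3 in the other normal diet libraries and 18.3 to 426.5 on the pro-inflammatory diet. Among them, Sis was at 17.6 FPKM in CN-4, against 0.0919 to 0.26 in the other normal diet libraries and 0.11 to 4.12 on the pro-inflammatory diet. In bulk tissue, fewer cells of a type and less RNA per cell cannot be told apart.

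Across the set, levels were on average higher on the pro-inflammatory diet, by small amounts, and no gene passed the test. Of the 33 genes, 29 had a mean of at least 1 FPKM over all libraries and were tested by limma on log2(FPKM + 1), with Benjamini-Hochberg adjustment over all 12345 genes tested. In each direction 0 of the 29 passed an adjusted p of 0.05, as did 0.0% of all genes tested. The smallest adjusted p of the set was 0.173. The log2 fold change, pro-inflammatory minus normal diet, was positive for 24 of the 29 (82.8%) and for 47.1% of all genes tested, with medians of 0.22 and -0.013. At an unadjusted p under 0.05, 11 of the 29 were higher (37.9%, against a background of 8.16%) and 0 lower (background 9.25%). In 3 of the 29 (10.3%, background 1.77%), all 5 values on the pro-inflammatory diet lay above all 5 on the normal diet, and in 0 all 5 lay below (background 2.07%). Acaa1b and Vnn1 reached the mean of 1 FPKM only through their values on the pro-inflammatory diet, so these counts describe the tested genes and are no evidence about the set. PI-2 and PI-5 held the 2 highest of the 10 values for 16 of the 29 genes (55.2%), against 13.9% of all genes tested, and the 2 lowest for 2 genes, against 17.4%. Without these 2 libraries 0 genes passed either, and the median of the set was 0.127. At an unadjusted p under 0.05, 7 of the 29 were then higher, against 8.06% of all genes in that fit, and 1 was lower. The number with higher levels was 3 without CN-1, CN-2 and CN-3, against 1.81% of all genes in that fit. It was 18 without PI-1 and PI-3, against 9.86% of all genes. The background thus moved with the libraries used. PI-1 and PI-3 held the 2 highest values for 0 of the 29, against 2.8% of all genes tested, and for 2 of the 4 genes not tested, Cyp4a10 and Cyp4a14.

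**Figure D1:**
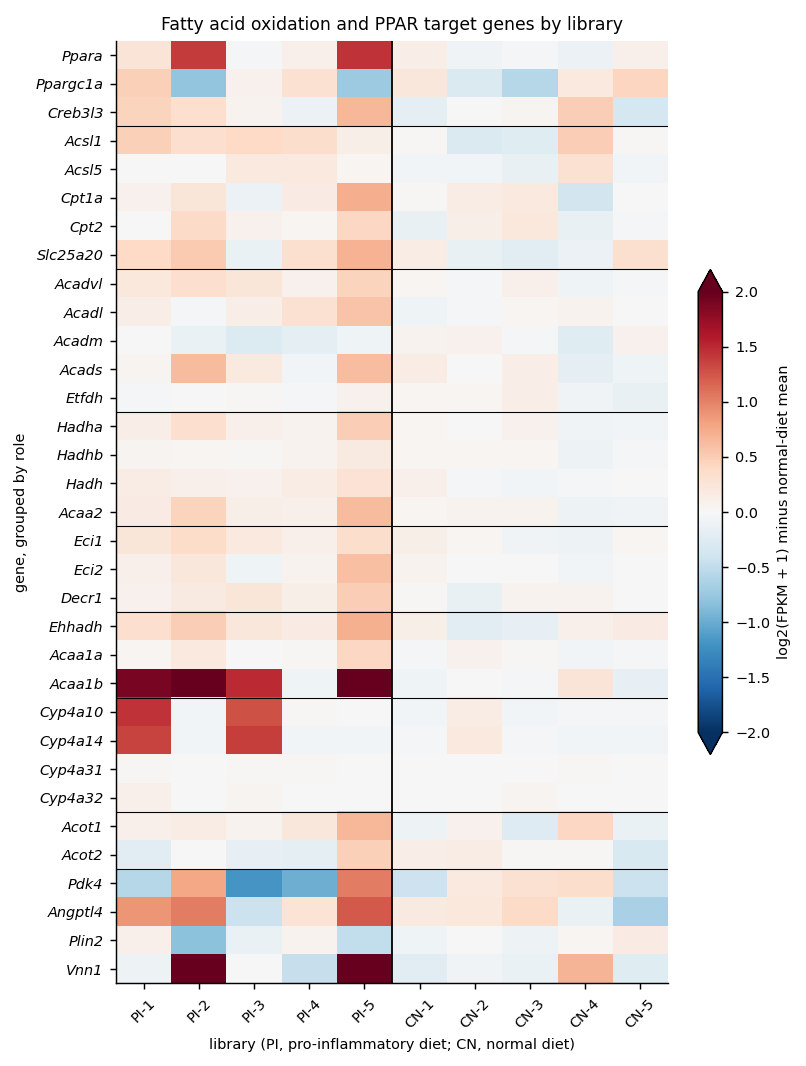
Level of each of the 33 genes (rows, grouped by role) in each library (columns), as log2(FPKM + 1) minus the normal diet mean of that gene. Colours saturate at 2 in either direction; PI-2 and PI-5 are the reddest columns for Ppara and Vnn1, and PI-1 and PI-3 for Cyp4a10 and Cyp4a14.

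Among the regulators, Ppara itself was high in the pair of libraries with low Hoxb13. Ppara, the fatty acid sensing receptor (chromosome 15, 85734983 to 85802819, plus strand, GRCm38), was at 2.98, 7.8, 2.29, 2.56 and 8.12 FPKM in PI-1 to PI-5, against 2.65, 2.19, 2.23, 2.06 and 2.59 in CN-1 to CN-5. The values of PI-1, PI-3 and PI-4 lay within or just above the normal diet range, so the groups overlapped (log2 fold change 0.64, SE 0.29, limma adjusted p = 0.294). It was 0.11 (SE 0.10) without PI-2 and PI-5. Creb3l3, a transcription factor released from the endoplasmic reticulum membrane that acts with PPAR alpha in mouse liver, was at 1.87, 1.67, 1.21, 0.95 and 2.36 FPKM on the pro-inflammatory diet, against 0.85, 1.09, 1.2, 1.98 and 0.653 on the normal diet, with wide overlap (log2 fold change 0.28, adjusted p = 0.43). Ppargc1a, a coactivator of mitochondrial genes, was low in the same pair. It was at 2.23 FPKM in PI-2 and 2.38 in PI-5, the 2 lowest values of all 10, against 2.75 to 6.54 on the normal diet (log2 fold change -0.13, SE 0.29, adjusted p = 0.824; 0.29 without PI-2 and PI-5).

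The genes that activate fatty acids and carry them into mitochondria all had positive log2 fold changes, 0.09 to 0.36. At an unadjusted limma p under 0.05, 2 of these 5 were higher (40.0%, against 8.16% of all genes tested). Slc25a20, the carnitine-acylcarnitine carrier of the inner membrane, was at 110.0, 119.8, 76.0, 104.3 and 134.6 FPKM on the pro-inflammatory diet, against 92.4, 75.2, 71.7, 76.3 and 103.7 on the normal diet. Its groups overlapped only through PI-3 (log2 fold change 0.36, SE 0.15, adjusted p = 0.264). Acsl1, a long-chain acyl-CoA synthetase, was at 8.98, 8.03, 8.4, 8.12 and 6.75 FPKM on the pro-inflammatory diet, against 6.27, 4.86, 5.08, 9.05 and 6.28 on the normal diet. Only CN-4, the highest of all 10, lay inside or above the pro-inflammatory diet range (log2 fold change 0.33, SE 0.14, adjusted p = 0.26), and without PI-2 and PI-5 the difference was 0.40. Cpt1a, the outer membrane carnitine palmitoyltransferase that sets the pace of entry, spanned 55.9 to 100.6 FPKM on the pro-inflammatory and 46.6 to 69.3 on the normal diet (log2 fold change 0.22, adjusted p = 0.452). Cpt2, its inner membrane partner, and Acsl5, another synthetase, had log2 fold changes of 0.19 and 0.09.

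The acyl-CoA dehydrogenases, which take the first electrons at each turn and differ in the chain length they accept, differed in the sign of their fold changes. Acadvl, for very long chains, was at 85.4, 93.3, 87.1, 78.0 and 101.0 FPKM on the pro-inflammatory diet, against 75.6, 72.8, 78.8, 69.2 and 72.4 on the normal diet. The groups crossed only at PI-4 and CN-3 (log2 fold change 0.26, SE 0.07, adjusted p = 0.173, unadjusted p = 0.00427). Acadl, for long chains, was at 89.8, 81.3, 89.9, 101.5 and 122.9 FPKM on the pro-inflammatory diet, against 77.8, 81.0, 84.3, 86.3 and 82.1 on the normal diet, with PI-2 inside the normal diet range (log2 fold change 0.22, SE 0.10, adjusted p = 0.284). Acads, the short-chain enzyme that handles butyrate, was at 75.9, 114.2, 83.8, 70.3 and 112.2 FPKM on the pro-inflammatory diet, against 81.1, 73.4, 79.7, 63.4 and 68.5 on the normal diet. PI-2 and PI-5 stood above the rest, and its log2 fold change of 0.29 (SE 0.14, adjusted p = 0.314) was 0.07 (SE 0.09) without them. Acadm, for medium chains, averaged 66.8 ± 4.8 FPKM on the pro-inflammatory and 73.7 ± 6.85 on the normal diet (SD, n = 5 each; log2 fold change -0.14, limma adjusted p = 0.368), the only dehydrogenase of the set with a negative value. Etfdh, which passes the electrons on to ubiquinone, had a log2 fold change of 0.01 that changed sign between settings.

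Genes of the later steps were higher on average by small amounts, with log2 fold changes of 0.07 to 0.29. Acaa2, the mitochondrial thiolase, was at 65.0, 78.7, 62.6, 62.1 and 90.0 FPKM on the pro-inflammatory diet, against 59.2, 60.6, 60.4, 54.0 and 54.7 on the normal diet. The groups did not overlap (log2 fold change 0.29, SE 0.10, adjusted p = 0.212; two-sided exact permutation p = 0.00794, the smallest that 5 against 5 can give). Without PI-2 and PI-5 the log2 fold change was 0.13 (SE 0.06, limma adjusted p = 0.337, unadjusted p = 0.0588). Hadha, the alpha subunit of the trifunctional protein, was at 122.8, 142.7, 120.7, 118.0 and 159.2 FPKM on the pro-inflammatory diet, against 115.2, 113.3, 119.0, 107.3 and 107.8 on the normal diet (log2 fold change 0.23, SE 0.09, adjusted p = 0.226). Only PI-4 lay below the highest normal diet value. Hadhb, the beta subunit of the same enzyme, averaged 32.7 ± 1.46 FPKM on the pro-inflammatory and 31.0 ± 1.34 on the normal diet (SD, n = 5 each; log2 fold change 0.07, limma adjusted p = 0.445). Hadh, the dehydrogenase for shorter chains, was at 159.7, 153.7, 152.6, 159.5 and 174.9 FPKM on the pro-inflammatory diet, against 154.9, 141.6, 139.0, 139.5 and 144.0 on the normal diet, where CN-1 alone reached the other group (log2 fold change 0.15, SE 0.06, adjusted p = 0.218).

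Enzymes that prepare unsaturated fatty acids for the spiral also had positive fold changes. Eci1, an enoyl-CoA isomerase (chromosome 17, 24426641 to 24439348, plus strand), was at 40.2, 44.0, 38.9, 36.5 and 43.4 FPKM on the pro-inflammatory diet, against 36.7, 34.7, 32.3, 31.5 and 34.7 on the normal diet. PI-4 and CN-1 crossed narrowly (log2 fold change 0.25, SE 0.07, adjusted p = 0.173, unadjusted p = 0.00374). Eci1 and Acadvl were the only genes of the set with an unadjusted p under 0.05 in 29 of 29 settings. Decr1, the mitochondrial dienoyl-CoA reductase, was at 23.4, 25.0, 26.3, 23.9 and 31.5 FPKM on the pro-inflammatory diet, against 22.4, 19.8, 23.1, 23.1 and 21.8 on the normal diet. Its groups did not overlap, by a margin of 23.4 to 23.11 between the nearest libraries (log2 fold change 0.22, SE 0.08, adjusted p = 0.218; exact permutation p = 0.00794). Eci2 had a log2 fold change of 0.18, and 0.03 without PI-2 and PI-5.

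**Figure D2:**
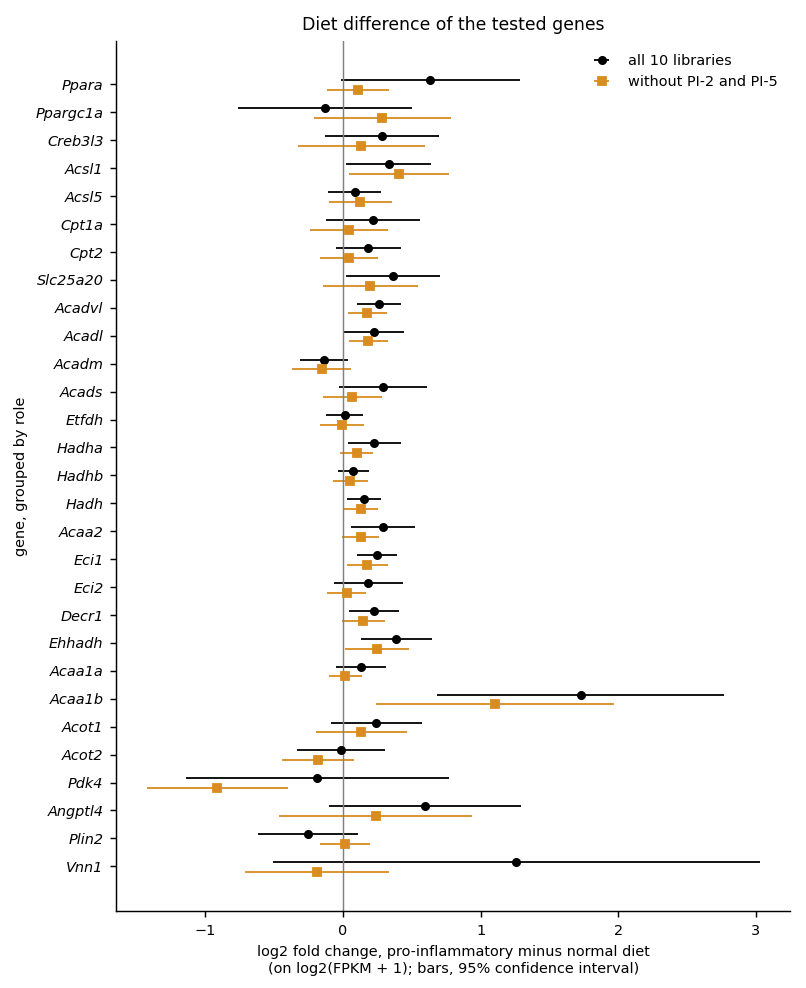
Log2 fold change of each tested gene (pro-inflammatory minus normal diet, on log2(FPKM + 1)) with its 95% confidence interval, over all 10 libraries (black circles) and without PI-2 and PI-5 (orange squares). With all libraries 11 intervals lie above 0 and none below; Ppara and Vnn1 move close to 0 without the pair, and Pdk4 moves to -0.91.

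The peroxisomal spiral held the gene with the largest fold change of the set. Acaa1b (chromosome 9, 119148023 to 119157093, minus strand), a peroxisomal thiolase that mouse liver makes in response to PPAR alpha activators, was at 3.37, 9.33, 2.31, 0.108 and 4.26 FPKM on the pro-inflammatory diet, against 0.109, 0.171, 0.15, 0.405 and 0.0494 on the normal diet. Whole reads were 134, 366, 95, 4 and 152, against 4, 6, 6, 16 and 2. PI-4 lay within the normal diet range, and the other 4 libraries of that diet lay above every normal diet library (log2 fold change 1.73, SE 0.47, limma adjusted p = 0.173, unadjusted p = 0.00406). Acaa1b reached the mean of 1 FPKM only through its values on the pro-inflammatory diet, so these p-values are no evidence of a difference. The log2 fold change was 1.11 (SE 0.38) without PI-2 and PI-5, and 1.74 without PI-1 and PI-3, the libraries with albumin. Acaa1a, its close copy with the same activity, averaged 39.6 ± 5.14 FPKM on the pro-inflammatory and 35.9 ± 1.36 on the normal diet (SD, n = 5 each; log2 fold change 0.13, limma adjusted p = 0.401). Of all stretches of 75 bases in the longest Acaa1b transcript, 28.5% are also in an Acaa1a transcript, so some reads could have been given to either gene. Acaa1b also overlaps Dlec1 on the other strand, and reads of the 2 genes cannot be told apart where counting ignored strand. Ehhadh, the bifunctional enzyme of the spiral (chromosome 16, 21761287 to 21787807, minus strand), was at 17.7, 19.8, 16.3, 15.6 and 23.1 FPKM on the pro-inflammatory diet, against 15.1, 11.6, 12.2, 14.8 and 15.6 on the normal diet. The groups touched without overlap, 15.65 in PI-4 and 15.56 in CN-5 (log2 fold change 0.39, SE 0.12, adjusted p = 0.18; exact permutation p = 0.00794).

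The CYP4A omega-hydroxylases, classic PPAR alpha targets of rodent liver, were nearly silent and stayed below the mean of 1 FPKM. Cyp4a10 (chromosome 4, 115518264 to 115533649, plus strand) was at 1.84, 0.0, 1.51, 0.0579 and 0.0301 FPKM on the pro-inflammatory diet, against 0.0, 0.153, 0.0, 0.0272 and 0.0265 on the normal diet. Its whole reads were 68 in PI-1 and 58 in PI-3, and 0 to 5 in the other 8 libraries. Cyp4a14 (chromosome 4, 115486200 to 115496142, minus strand) was at 1.67, 0.0, 1.73, 0.0 and 0.0 FPKM on the pro-inflammatory diet, against 0.0187, 0.196, 0.0172, 0.0 and 0.0 on the normal diet, with 96 and 103 reads in PI-1 and PI-3 and 0 to 10 elsewhere. A count of 0 allows up to 3 reads, or 0.0527 FPKM of Cyp4a14 in PI-2. PI-1 and PI-3 were also the libraries with hepatocyte plasma protein genes, whose 9 members summed to 192.5 and 199.9 FPKM there, against 0.805 to 1.21 in PI-2, PI-4 and PI-5 and 2.46 to 17.1 in the normal diet libraries. The part of that signal in the CYP4A values was not tested. Fabp1, a fatty acid binding protein abundant in liver and small intestine, was also highest in PI-1 and PI-3, at 39.3 and 37.2 FPKM, against 0.0 to 1.56 in PI-2, PI-4 and PI-5 and 0.108 to 7.53 in the normal diet libraries. Cyp4a31 and Cyp4a32 had 0 to 3 reads in every library, and CYP4A genes share sequence (14.8% of 75-base stretches of Cyp4a10 are found in Cyp4a32).

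**Figure D3:**
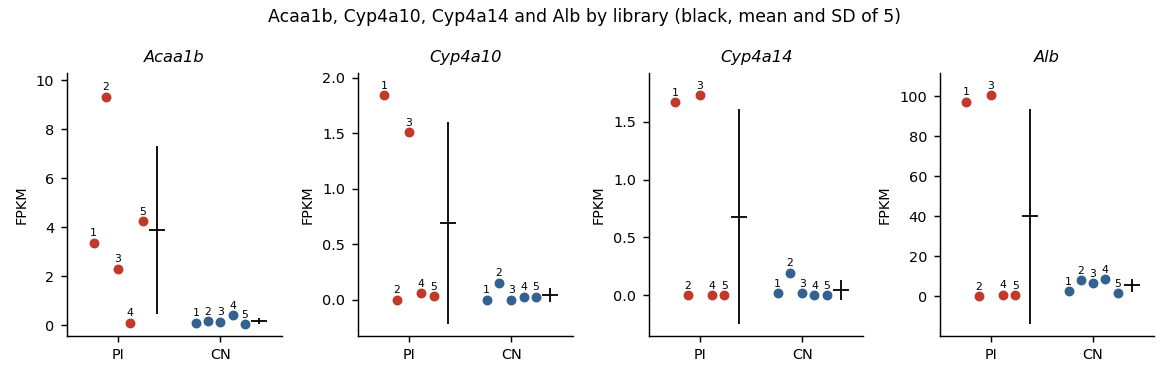
FPKM of Acaa1b, Cyp4a10, Cyp4a14 and Alb in each library (PI, pro-inflammatory diet, left; CN, normal diet, right; small numbers, library; black, mean and SD of 5). Cyp4a10, Cyp4a14 and Alb are high in PI-1 and PI-3 only, while Acaa1b is highest in PI-2.

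The acyl-CoA thioesterases, which free fatty acids from coenzyme A in cytosol (Acot1) and mitochondria (Acot2), had overlapping groups. Acot1 was at 2.79, 2.89, 2.69, 3.14 and 4.56 FPKM on the pro-inflammatory diet, against 2.3, 2.74, 1.94, 3.67 and 2.2 on the normal diet (log2 fold change 0.24, SE 0.15, adjusted p = 0.4). Acot2 was at 1.77, 2.21, 1.86, 1.84 and 3.46 FPKM on the pro-inflammatory diet, against 2.49, 2.55, 2.24, 2.24 and 1.58 on the normal diet (log2 fold change -0.01, SE 0.15, adjusted p = 0.969), although its mean FPKM of 2.23 was above the 2.22 of the normal diet. PI-5 was the highest of all 10 libraries in both, and 14.8% of 75-base stretches of Acot1 occur in Acot2, so the split of reads between them is uncertain.

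The remaining PPAR targets had fold changes of both signs, and for 3 of the 4 PI-2 and PI-5 held the 2 highest values. Vnn1, a pantetheinase anchored to the surface of epithelial cells (chromosome 10, 23894688 to 23905343, plus strand), was at 0.443, 16.8, 0.563, 0.125 and 14.9 FPKM on the pro-inflammatory diet, against 0.327, 0.475, 0.416, 1.48 and 0.32 on the normal diet. Its values in PI-2 and PI-5 stood far above every other library, while PI-1, PI-3 and PI-4 were in the normal diet range or below it (log2 fold change 1.26, SE 0.80, adjusted p = 0.41; -0.19 without the pair). Vnn1 was tested only because its values on the pro-inflammatory diet raised its mean to 1 FPKM or more. Angptl4, a secreted inhibitor of lipoprotein lipase, was at 3.82, 4.35, 0.944, 2.16 and 5.12 FPKM on the pro-inflammatory diet, against 1.98, 2.04, 2.41, 1.4 and 0.668 on the normal diet (log2 fold change 0.59, SE 0.31, adjusted p = 0.343). PI-1, PI-2 and PI-5, its 3 highest libraries, also had the 3 highest levels of the adipocyte hormone gene Adipoq (11.1, 20.5 and 9.85 FPKM, against 0.574 and 0.49 in PI-3 and PI-4 and 0.0 to 6.12 on the normal diet). The 8 adipocyte markers summed to 37.0 to 268.2 FPKM on the pro-inflammatory and 28.0 to 107.5 on the normal diet, and their part in the Angptl4 values was not tested.

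Pdk4 and Plin2 were singled out after their values were seen, because their fold changes were negative in a group otherwise positive. Pdk4, a kinase that shuts pyruvate out of the mitochondrial cycle, was at 2.11, 6.95, 1.04, 1.36 and 8.46 FPKM on the pro-inflammatory diet, against 2.5, 4.32, 4.71, 4.89 and 2.43 on the normal diet. PI-2 and PI-5 were the highest and PI-1, PI-3 and PI-4 the lowest of all 10, and the means were 3.98 ± 3.46 FPKM on the pro-inflammatory and 3.77 ± 1.21 on the normal diet (SD, n = 5 each; limma log2 fold change -0.19, SE 0.43, adjusted p = 0.833). Without PI-2 and PI-5 the value was -0.91 (SE 0.23, adjusted p = 0.234). Plin2, the coat protein of lipid droplets, was at 58.0, 30.0, 49.2, 56.3 and 37.9 FPKM on the pro-inflammatory diet, against 50.6, 53.6, 49.9, 55.2 and 60.2 on the normal diet. It was lowest in PI-2 and PI-5 (log2 fold change -0.25, SE 0.17, adjusted p = 0.423), and the difference was 0.01 without them.

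**Figure D4:**
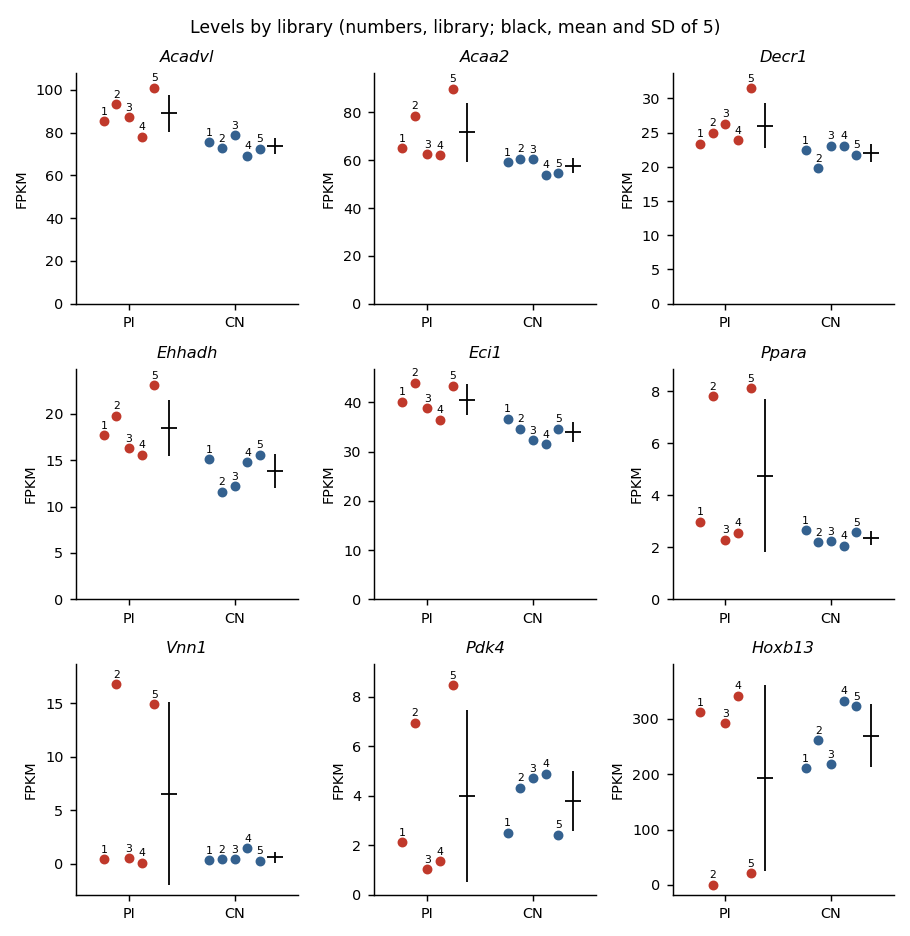
FPKM of 8 genes of the set and of the distal colon gene Hoxb13 in each library (PI, pro-inflammatory diet, left; CN, normal diet, right; small numbers, library; black, mean and SD of 5). Acadvl, Acaa2, Decr1, Ehhadh and Eci1 have slightly higher means on the pro-inflammatory diet, whereas Ppara, Vnn1 and Pdk4 are high in PI-2 and PI-5, where Hoxb13 is at 0.417 and 20.9 FPKM.

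Other genes of the same pathways, 67 in all and 59 of them tested, were also mostly above 0 in fold change, without a call. Of these, 42 had a positive and 17 a negative log2 fold change, with a median of 0.16, and 0 passed in either direction. At an unadjusted p under 0.05, 16 were higher (27.1%, background 8.16%) and 2 lower (background 9.25%). PI-2 and PI-5 held the 2 highest values for 21 of the 59 (35.6%, background 13.9%), among them Pparg, Rxra, Etfb, Ech1 and Scp2. Without PI-2 and PI-5, 36 of the 59 had a positive and 23 a negative log2 fold change, and the median was 0.03. At an unadjusted p under 0.05, 15 were then higher (25.4%, against 8.06% of all genes in that fit). Without CN-1, CN-2 and CN-3 the number higher at that level was 3 (5.1%, against 1.81% of all genes in that fit). Among receptors and coregulators 3 of 8 were higher at that level, Rxra, the partner of PPAR alpha (log2 fold change 0.35, adjusted p = 0.197), Esrra, an orphan receptor of mitochondrial genes (0.18, adjusted p = 0.202), and Pparg, the adipocyte and colonocyte receptor (0.59, adjusted p = 0.221). Without PI-2 and PI-5 the log2 fold change was 0.17 for Rxra and 0.20 for Pparg. Pparg was at 26.7 and 25.5 FPKM in PI-2 and PI-5, against 11.9 to 13.8 in PI-1, PI-3 and PI-4 and 9.68 to 12.8 in the normal diet libraries. Of the uptake genes, Slc27a2, a very long-chain acyl-CoA synthetase, had a log2 fold change of 0.51 (adjusted p = 0.216) and was at 5.44 FPKM in PI-1 and 4.26 in PI-3, the libraries with albumin, against 2.1 to 2.92 in PI-2, PI-4 and PI-5 and 1.75 to 2.32 in the normal diet libraries. Its log2 fold change was 0.21 without PI-1 and PI-3. Cd36, a fatty acid translocase, had a log2 fold change of 0.44 (adjusted p = 0.267) and was at 12.4, 15.2 and 12.0 FPKM in PI-1, PI-2 and PI-5, the libraries with the highest Adipoq, against 7.09 and 9.43 in PI-3 and PI-4 and 5.96 to 10.1 in the normal diet libraries. The part of hepatocyte or adipocyte RNA in these values was not tested. In the peroxisomal group 11 of 12 tested genes had positive values. Ech1, a dienoyl-CoA isomerase, was at 169.3 ± 21.1 FPKM on the pro-inflammatory and 135.7 ± 7.46 on the normal diet (SD, n = 5 each; limma adjusted p = 0.173). Scp2, a thiolase and lipid carrier, had a log2 fold change of 0.27 (limma adjusted p = 0.173). Without PI-2 and PI-5 the log2 fold change was 0.19 for Ech1 and 0.18 for Scp2, against 0.31 and 0.27 with all libraries.

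In the mitochondrial group, Mlycd, which removes the malonyl-CoA that blocks Cpt1a, had the smallest p of the 59. It was at 10.1, 9.43, 10.1, 10.5 and 11.0 FPKM on the pro-inflammatory diet, against 8.57, 7.66, 8.27, 8.37 and 8.56 on the normal diet. The groups did not overlap and the pair with low Hoxb13 did not stand out (log2 fold change 0.27, SE 0.06, adjusted p = 0.151, unadjusted p = 0.000504). Etfb, the electron acceptor of the dehydrogenases, had a log2 fold change of 0.42 (adjusted p = 0.173), and of 0.27 without PI-2 and PI-5. For ketone bodies, Bdh1, the hydroxybutyrate dehydrogenase, averaged 42.6 ± 2.16 FPKM on the pro-inflammatory and 35.3 ± 3.38 on the normal diet without overlap (SD, n = 5 each; log2 fold change 0.27, limma adjusted p = 0.17). Among further PPAR responsive genes, Ucp2, an inner membrane carrier, and Cyp4f14, an omega-hydroxylase, had log2 fold changes of 0.45 and 0.63 (adjusted p = 0.166 and 0.173).

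**Figure D5:**
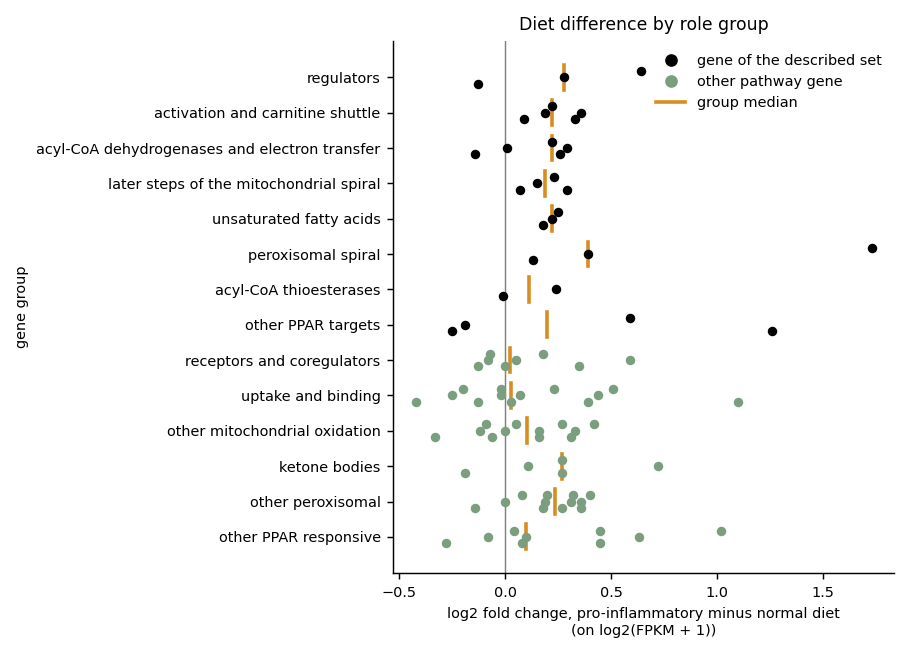
Log2 fold change (pro-inflammatory minus normal diet) of each tested gene in 14 role groups; black points are genes of the set, green points other pathway genes, and orange bars the group medians. The 14 medians lie between 0.03 and 0.39, and Acaa1b at 1.73 is the highest point.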

How the data were processed

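Colon RNA of 10 samples was measured by RNA sequencing. Per the labels' protocols, total RNA with an integrity number of at least 7 went into a stranded mRNA library kit and was read in pairs. The authors deposited 1 FPKM value per gene and sample. Per the submitters' processing notes, the build was mm10 and the tools included HISAT2, Cufflinks, HTSeq and DESeq, besides Trimmomatic, StringTie and Bowtie2, in no stated order. No source used here states a strand setting for the counting, so genes that overlap on the other strand (Acaa1b with Dlec1, Acadvl with Dvl2, Hadha with Garem2, Acsl5 with Zdhhc6, Etfdh with 4930579G24Rik, Eci2 with Gm16984, and Acaa1a with Myd88 and Slc22a14) and close gene copies are uncertain.

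FPKM values were whole multiples of the value of 1 read, within 0.01 read, for 18398 of 18398 genes, which gave the reads. In a test on simulated data 99.97% of 3000 genes were recovered exactly. The test was limma 3.58.1 in R 4.3.3 (eBayes, trend over the mean) on log2(FPKM + 1) for genes with a mean of at least 1 FPKM, and calls were made at a Benjamini-Hochberg adjusted p of 0.05. Fold changes on this scale understate those of low genes. In simulated data (12345 genes), 73.1% of 67 genes changed 1.5-fold, 95.5% of 67 changed 2-fold and 97.0% of 66 changed 4-fold were called, with 9 false calls. Each gene was drawn independently, without the differences that several libraries share here, and only genes of higher expression were changed. These shares therefore do not say how often a real change would be called in these libraries, least of all for low genes. The closest pair of libraries differed by a chi-square of 11.5 per gene, so none was treated as a copy. Gene coordinates are from GENCODE M21 (GRCm38).

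The members and gene lists were chosen with earlier results of these data known. Values in every library are printed, within each role group, for the 2 genes with the largest fold change and the 2 with the smallest p. Of other pathway genes, the 2 with the smallest p per group are named; a few genes that the rule names are not reported here. Full values of Cyp4a10, Cyp4a14, Pdk4 and Plin2, and the naming of Ppargc1a, Pparg and Fabp1 with values, were added after their values were seen. Alternatives changed the pseudocount, filter, scaling, variance model, weights, test, covariates, replicate block and libraries used. Confidence intervals of fold changes come from limma and cover the scatter between samples, while the limit of 3 reads for a count of 0 covers counting error only. Figures were drawn with matplotlib 3.10.9.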

Additional observations from a re-analysis of the deposited data

Results flagged for a closer look

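Of the 33 genes, each with 5 values per diet, 8 values lay apart from the other 4 of their diet by more than Dixon's 95% limit for 5 samples. The comparison covered 66 groups of values, of which chance alone flags about 1 in 20. On the pro-inflammatory diet, PI-5 was apart for Acot1, at 4.56 FPKM with the others at 2.69 to 3.14, and for Acot2, at 3.46 with the others at 1.77 to 2.21. On the normal diet, CN-4 was apart for Vnn1, at 1.48 FPKM with the others at 0.32 to 0.475, and for Acsl5, at 54.9 with the others at 40.1 to 42.9. CN-4 also had the highest small intestine marker sum of the normal diet libraries, and the part of that signal in these values was not tested. The other 4 are CYP4A genes with 0 to 10 reads per library on the normal diet: Cyp4a10 at 0.153 FPKM and Cyp4a14 at 0.196 in CN-2, Cyp4a31 at 0.0224 in CN-4, and Cyp4a32 at 0.0541 in CN-3. These last values rest on 5, 10, 1 and 2 reads.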

How the results depend on the processing

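No gene of the set passed under any of 18 other settings or 10 settings that left out 1 library. Over all genes, 0 passed except 1 higher with the distal colon covariate (Kyat1) and 1 lower with the clock output covariate (Chit1). Of 29 tested genes, 22 kept their direction in every setting that tested them. The number higher at an unadjusted p under 0.05, 11 over all libraries, was 6 with the distal colon covariate and 5 with the smooth muscle minus epithelium covariate. It was 3 without CN-1, CN-2 and CN-3, 18 without PI-1 and PI-3, and 7 without PI-2 and PI-5. The share of all genes higher at that level was 8.16% over all libraries. In the last 3 settings it was 1.81%, 9.86% and 8.06%, and for the other settings it is not given here. Leaving out 1 library gave 7 to 13, with 7 without CN-2 or CN-3. The number lower, 0 over all libraries, was 1 with array weights (Acadm), with the distal colon covariate (Pdk4), with the clock output covariate (Plin2), without PI-2 and PI-5 (Pdk4) and without PI-1 and PI-3 (Plin2), and 0 to 1 with 1 library left out. The number not overlapping and higher, 3 over all libraries, was 12 without CN-1, CN-2 and CN-3 and 5 without PI-1 and PI-3, and 1 was lower without PI-2 and PI-5 (Pdk4). Leaving out 1 library gave 3 to 7, with 7 without PI-4 and 5 without CN-1, CN-3, CN-4 or PI-3. Fewer libraries overlap less by construction, and the share of all genes not overlapping in these settings is not given here. The median of the set was 0.127 to 0.286 under these settings and 0.137 to 0.259 with 1 library left out (lowest without PI-5), against 0.224 over all libraries. Signs turned for Ppargc1a (0.175 with array weights, 0.305 with the muscle, 0.296 with the distal colon covariate, 0.287 without PI-2 and PI-5), Acsl5 (-0.039 without CN-1, CN-2 and CN-3) and Plin2 (0.022 with the distal colon covariate, 0.015 without PI-2 and PI-5). They also turned for Vnn1 (-0.041 and -0.188 in these same 2 settings), Pdk4 (0.034 with the clock, 0.021 with the hepatocyte covariate, 0.277 without PI-1 and PI-3) and Acot2 (0.007 with quantile normalization, 0.096 with the clock, 0.037 with the hepatocyte covariate, 0.103 without PI-1 and PI-3, 0.132 without CN-1, CN-2 and CN-3). Etfdh was at -0.019 with quantile normalization, -0.016 with array weights and with the muscle, -0.017 with the distal colon and -0.000 with the adipocyte covariate, and -0.008 without PI-2 and PI-5. With 1 library left out, the ranges were -0.282 to 0.034 for Ppargc1a, -0.025 to 0.044 for Etfdh, -0.136 to 0.036 for Acot2 and -0.49 to 0.063 for Pdk4. The cause was not tested. The hepatocyte covariate and the settings that left out several libraries were chosen after seeing the data. Same-numbered libraries of the diets did not deviate together (correlations of -0.263 to 0.0613), and the main test used no pairing. Such correlations cannot show whether the samples were paired by design. With a replicate block 11 genes of the set were higher at an unadjusted p under 0.05 and 0 passed. Precision was limited by reads for Cyp4a31 and Cyp4a32, with 0 to 3 reads per library.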
